A study of Mus musculus with 11 samples.

Results

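The transcripts described here are those of 10 genes of the choroid plexus epithelium, Ttr, Sostdc1, Kl, Folr1, Clic6, Slc16a8, Otx2, Kcnj13, Kcne2 and Aqp1. They were found by gene name among the 20957 genes of the count table, and all 10 passed the filter on low values that kept 16768 genes for testing. The choroid plexus hangs in the brain ventricles, next to the striatum. Its epithelial cells make the cerebrospinal fluid, form the barrier between blood and that fluid, and secrete carrier proteins and hormones into it. Transthyretin, the product of Ttr, is the best known of these proteins. Water and ions cross the cells through aquaporins, channels and cotransporters, and folate and lactate cross through receptors and carriers of their own.

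Gene expression was measured by poly(A) sequencing of small punches of striatum from BACHD mice, which carry a full-length human mutant huntingtin transgene on the FVB/N background beside their own Htt gene. All 11 libraries share this transgene, so no wild-type tissue was compared. The mice received subcutaneous injections of the DMSO vehicle (4 libraries), SPI-24 (4 libraries) or SPI-77 (3 libraries) for 4 days, and tissue was taken 6 h after the final dose. Both compounds were made to block the contact between Spt5, a transcription elongation factor, and RNA polymerase II. The labels give neither dose, age nor sex, and the study's methods name more than 1 dose of each compound, so the compounds are set side by side and were not compared with each other. The labels call the libraries biological replicates, and each is named below by its group and number.

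The libraries held 10.2 M to 33.8 M reads. SPI-24 4 detected 16263 genes and the other libraries 17932 to 20313, and 1464 tested genes had no read in SPI-24 4 against 17 to 550 elsewhere. Xist was between 3333 and 4662 normalized counts in 2 DMSO libraries (1 and 3) and 3 SPI-24 libraries (1, 2 and 4) and at most 7.70 in the other libraries, where the Y-linked gene Ddx3y was between 78.6 and 309.7. All SPI-77 libraries were of the second kind, so sex and compound are partly confounded in that comparison. The tissue label was checked with 12 genes of medium spiny neurons, the main neurons of the striatum. Their summed normalized count ranged from 29337 to 105500 in the DMSO libraries, from 5186 to 87695 in the SPI-24 libraries and from 7338 to 10066 in the SPI-77 libraries. Bulk values cannot tell fewer cells of a type from less RNA per cell.

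OTX2, the product of Otx2, is a homeodomain transcription factor needed to form and maintain the choroid plexus, and it binds DNA with the core TAATCC. The start regions of the genes were therefore searched for TAATCC on either strand, in windows of 250 bases before to 50 after each start in the RefSeq promoter table for GRCm38.p6. The table held 10 windows of 6 members (Aqp1, Kcne2, Kcnj13, Kl, Otx2 and Slc16a8). The core was found in 1 of them, a window of Otx2 itself, and in 7.06% of all 32851 windows. The Otx2 window (chr14:48665060-48665359, minus strand) is shown because it holds the match, in capitals, which reads GGATTA on the printed strand and begins at base 40. The window of Kl (chr5:150952357-150952656, plus strand) is shown beside it because Kl had the most negative estimate of the members under SPI-77, and it holds no match.
Otx2: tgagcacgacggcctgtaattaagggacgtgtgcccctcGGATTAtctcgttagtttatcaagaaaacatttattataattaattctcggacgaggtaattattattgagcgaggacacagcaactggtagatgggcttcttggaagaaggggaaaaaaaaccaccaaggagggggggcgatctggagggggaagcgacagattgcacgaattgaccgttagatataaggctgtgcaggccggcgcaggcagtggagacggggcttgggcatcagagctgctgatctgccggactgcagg
Kl: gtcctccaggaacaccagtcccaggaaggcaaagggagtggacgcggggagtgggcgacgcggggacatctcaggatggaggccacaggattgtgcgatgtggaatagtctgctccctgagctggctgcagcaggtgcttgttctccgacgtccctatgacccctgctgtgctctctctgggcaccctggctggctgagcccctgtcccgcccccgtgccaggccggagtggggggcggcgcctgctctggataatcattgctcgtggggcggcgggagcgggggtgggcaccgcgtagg

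Across the 11 libraries the 10 genes varied together over a wide range. The range of a gene, taken as the difference between its highest and lowest library on the log2(normalized count + 1) scale, had a median of 4.54 over the members and of 1.35 over all genes tested. Within the DMSO libraries the medians were 1.30 and 0.71, within SPI-77 1.41 and 0.47, and within SPI-24 3.99 and 0.73. SPI-24 2 and SPI-24 3 were the lowest libraries. Both lay below all 9 other libraries for 9 of the 10 members, the exception being Slc16a8, and this was so for 3.12% of all genes tested. The pair was picked by the values of these same members, which varied together, so this contrast is no test. SPI-24 1 lay within the range of the DMSO libraries for all 10 members and SPI-24 4 for 7. Of the DMSO libraries, DMSO 4 was the lowest for 9 members, and of the SPI-77 libraries, SPI-77 2 was the highest for 9.

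**Figure D1:**
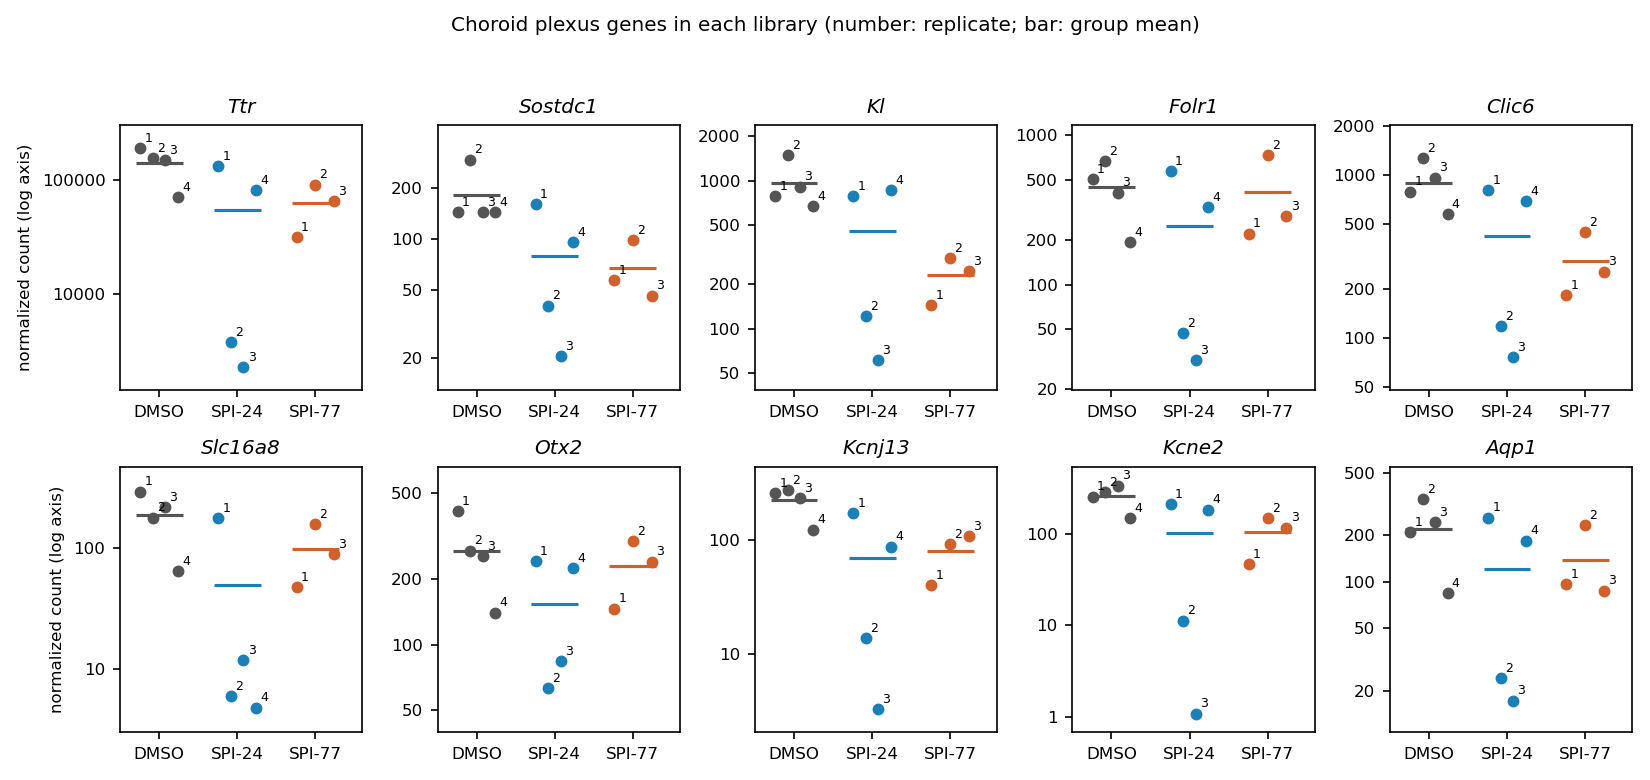
Normalized counts of the 10 choroid plexus genes (log axis, a scale of its own for each gene) in the DMSO, SPI-24 and SPI-77 libraries. Each point is 1 library with its replicate number and bars are group means. SPI-24 2 and SPI-24 3 are the lowest points for every gene but Slc16a8, which is also low in SPI-24 4, and Kl, Clic6, Sostdc1, Kcnj13 and Kcne2 are lower in all 3 SPI-77 libraries than in the 4 DMSO libraries.

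Of the secreted products, Ttr (chromosome 18, 20665280 to 20674321, plus strand, GRCm38) encodes transthyretin, the carrier of thyroid hormone and retinol-binding protein in cerebrospinal fluid. Ttr had 190915, 155337, 149205 and 70855 normalized counts in DMSO 1 to 4, 131889, 3789.5, 2265 and 81861 in SPI-24 1 to 4, and 31650.4, 91413 and 65082 in SPI-77 1 to 3. Per kilobase of exon its mean in the DMSO libraries was 119374 normalized counts, against 63.9 (Otx2) to 229 (Clic6) for the other members. Ttr thus stood far above the other 9 genes, and in DMSO 1, DMSO 2 and DMSO 3 it ranked 3 among all genes by normalized count. Its share of the reads was 1.19% in DMSO 1 (95% exact binomial interval 1.18 to 1.20%) and 0.0143% in SPI-24 3 (0.0137 to 0.0149%), where it ranked 1441. These intervals cover counting error only. The group means were 141578 ± 50608 (SD, n = 4) for DMSO, 54951 ± 63343 (n = 4) for SPI-24 and 62715 ± 29952 (n = 3) for SPI-77, and both compound groups overlapped the DMSO group. In limma the log2 fold change against DMSO was -2.93 ± 1.18 (SE, adjusted p = 0.975) for SPI-24 and -1.22 ± 1.28 (adjusted p = 0.531) for SPI-77. The limma value is a difference of mean log2 levels and not the log2 ratio of the group means.

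Sostdc1 (chromosome 12, 36314139 to 36318452, plus strand) encodes a secreted antagonist of BMP and Wnt signalling. Sostdc1 had 144, 295, 144 and 145 normalized counts in DMSO 1 to 4, 161, 40.5, 20.5 and 96.3 in SPI-24 1 to 4, and 57.3, 99 and 46.4 in SPI-77 1 to 3. DMSO 2 was the high library of the control group, while the other 3 lay between 144 and 145, and all 3 SPI-77 libraries lay below all 4 DMSO libraries. The SPI-24 group overlapped the control group through SPI-24 1 alone. The limma estimates were -1.50 ± 0.54 (SE, adjusted p = 0.975) for SPI-24 and -1.41 ± 0.58 (adjusted p = 0.107) for SPI-77 on the log2 scale.

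Of the receptors, Kl (chromosome 5, 150952607 to 150993817, plus strand) encodes klotho, a membrane protein and co-receptor of FGF23 that is also shed into the cerebrospinal fluid. Kl had 788, 1484, 912 and 675 normalized counts in DMSO 1 to 4, 783, 122, 61.4 and 862 in SPI-24 1 to 4, and 144, 299 and 246 in SPI-77 1 to 3. Every SPI-77 library was below every DMSO library, with a mean of 229.8 ± 79.0 (SD, n = 3) against 965 ± 359 (n = 4), while SPI-24 1 and SPI-24 4 were within the DMSO range. The log2 fold change for SPI-77 was -2.06 ± 0.81 (SE, 95% interval -3.85 to -0.27, limma adjusted p = 0.0979), the most negative of the 10 members in that comparison. For SPI-24 it was -1.78 ± 0.75 (limma adjusted p = 0.975).

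Folr1 (chromosome 7, 101858331 to 101870788, minus strand) encodes folate receptor alpha, which moves folate from blood into the cerebrospinal fluid. Folr1 had 511, 676, 414 and 193 normalized counts in DMSO 1 to 4, 576, 47.4, 31.2 and 329.9 in SPI-24 1 to 4, and 219.8, 734 and 289 in SPI-77 1 to 3. Here SPI-77 1 and SPI-77 3 were within the DMSO range, and SPI-77 2 was the highest library of all. The log2 fold change for SPI-77 was -0.18 ± 0.93 (SE, 95% interval -2.22 to 1.87, limma adjusted p = 0.911), an interval that leaves room for changes of more than 2-fold either way. For SPI-24 it was -1.64 ± 0.86 (limma adjusted p = 0.975), and without SPI-24 2 and SPI-24 3, both left out after their values were seen, it was 0.10. Folr1 overlaps Anapc15 on the opposite strand, which had 150.2 to 203 normalized counts in DMSO, 141 to 204 in SPI-24 and 216 to 268 in SPI-77. In SPI-24 3, where Anapc15 was at 204, Folr1 was at 31.2.

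Among the channels and transporters, Clic6 (chromosome 16, 92485736 to 92541243, plus strand) belongs to the family of chloride intracellular channel proteins. Clic6 had 788, 1260.1, 959.6 and 576 normalized counts in DMSO 1 to 4, 809, 118, 76.5 and 689.9 in SPI-24 1 to 4, and 184, 446 and 255 in SPI-77 1 to 3. The pattern was that of Kl, with the 3 SPI-77 libraries below all DMSO libraries. Its log2 fold changes in limma were -1.64 ± 0.75 (SE, adjusted p = 0.144) for SPI-77 and -1.68 ± 0.69 (adjusted p = 0.975) for SPI-24.

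Kcnj13 (chromosome 1, 87386363 to 87394729, minus strand) encodes the inward rectifier potassium channel Kir7.1 of the apical membrane, and Kcne2 (chromosome 16, 92292389 to 92298129, plus strand) a small subunit that joins the potassium channel KCNQ1 there. Kcnj13 had 261, 276, 236 and 124 normalized counts in DMSO 1 to 4, 174, 13.8, 3.23 and 87.9 in SPI-24 1 to 4, and 40, 92.4 and 109 in SPI-77 1 to 3. Kcne2 had 253, 285, 333 and 147 normalized counts in DMSO 1 to 4, 209, 11.2, 1.08 and 183 in SPI-24 1 to 4, and 46.6, 146 and 116 in SPI-77 1 to 3. Both genes were lower in all SPI-77 libraries than in all DMSO libraries, and both were lowest in SPI-24 3, where 3 reads of Kcnj13 and 1 read of Kcne2 were recovered. At such depth the values of SPI-24 3 are close to the floor of 3 reads, which equals 3.23 normalized counts in that library. The limma log2 fold changes for SPI-77 were -1.52 ± 1.03 (SE, adjusted p = 0.313) for Kcnj13 and -1.39 ± 1.35 (adjusted p = 0.493) for Kcne2. For SPI-24 they were -2.78 ± 0.95 and -2.96 ± 1.25 (limma adjusted p = 0.975 for both). Kcnj13 lies within Gigyf2 on the opposite strand, a gene at 571 to 1037 normalized counts, and the sources used here do not say whether strand was used in counting.

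Slc16a8 (chromosome 15, 79251014 to 79254761, minus strand) encodes MCT3, a lactate transporter of the choroid plexus and the retinal pigment epithelium. Slc16a8 had 294, 179.9, 221 and 64.6 normalized counts in DMSO 1 to 4, 177, 6.03, 11.8 and 4.82 in SPI-24 1 to 4, and 48, 158 and 89.2 in SPI-77 1 to 3. It was the member that left the common pattern. SPI-24 4, which was within the DMSO range for 7 of the members, was its lowest library, with 8 reads against 138 to 256 in the DMSO libraries, and 7 and 11 reads were recovered from SPI-24 2 and SPI-24 3. For each 1000 Ttr counts Slc16a8 had 0.0589 counts in SPI-24 4 and 0.911 to 5.23 in the other 10 libraries. SPI-24 4 is also the library with the fewest detected genes, and the part of this in the Slc16a8 value was not tested. The log2 fold change for SPI-24, -3.25 ± 0.95 (SE, limma adjusted p = 0.975), was the most negative of the members. Without SPI-24 1, the single SPI-24 library within the DMSO range, it was -4.37 and was called (limma adjusted p = 0.0337), as 1 of 2 genes called lower among all genes tested. For SPI-77 it was -0.91 ± 1.02 (limma adjusted p = 0.563), with overlapping libraries.

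Aqp1 (chromosome 6, 55336432 to 55348555, plus strand) encodes aquaporin 1, the water channel of the apical membrane. Aqp1 had 207, 339, 242 and 84.2 normalized counts in DMSO 1 to 4, 257, 24.1, 17.2 and 183 in SPI-24 1 to 4, and 95.9, 231 and 87.5 in SPI-77 1 to 3. The SPI-77 libraries all lay within the DMSO range. The limma log2 fold changes were -0.64 ± 0.89 (SE, adjusted p = 0.647) for SPI-77 and -1.52 ± 0.82 (adjusted p = 0.975) for SPI-24, and the latter became 0.15 without SPI-24 2 and SPI-24 3.

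The transcription factor gene Otx2 (chromosome 14, 48657677 to 48673819, minus strand) varied least over the libraries, by 2.69 on the log2 scale. Otx2 had 411, 271, 256 and 140.4 normalized counts in DMSO 1 to 4, 242, 62.9, 84 and 225 in SPI-24 1 to 4, and 147, 299 and 241 in SPI-77 1 to 3. SPI-24 2 and SPI-24 3 were again the lowest, and the SPI-77 libraries overlapped the DMSO libraries. Its log2 fold change in limma was -0.20 ± 0.49 (SE, 95% interval -1.27 to 0.87, adjusted p = 0.810) for SPI-77 and -0.94 ± 0.46 (adjusted p = 0.975) for SPI-24. Relative to Ttr, Otx2 had 37.1 counts for each 1000 Ttr counts in SPI-24 3, 16.6 in SPI-24 2 and 1.72 to 4.63 elsewhere. Sostdc1, Kl, Folr1, Clic6 and Aqp1 were also highest relative to Ttr in these libraries, Kl with 32.3 in SPI-24 2 and 27.1 in SPI-24 3 against 3.27 to 10.5 elsewhere. OTX2 is also made by neurons of the diencephalon and midbrain. The summed level of 9 thalamic genes ranged from 11430 to 38385 normalized counts in the SPI-24 libraries and from 3523 to 16659 in the DMSO libraries (13418 to 17221 in SPI-77), none of the 9 was at 0 in any library, and their part in the Otx2 level was not tested.

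For SPI-24 against DMSO, the question was whether the compound changed these genes over 4 days. All 10 estimates were below 0, as were 53.9% of all genes, and their median was -1.73 on the log2 scale against -0.02 over all genes. These are limma values, and on the recovered reads the estimate of every member was smaller in size. Ttr was at -2.93 in limma, -1.37 in edgeR and -1.36 in DESeq2. No member was called, that is, passed 0.05 after Benjamini-Hochberg adjustment with at least a 2-fold change, and neither was any other gene in limma (0% of 16768 genes in either direction), edgeR or DESeq2. At an unadjusted limma p below 0.05, 7 members were lower, as were 1.86% of all genes. No member had all SPI-24 libraries below all DMSO libraries, which was so for 0.817% of all genes. SPI-24 2 and SPI-24 3, of which the former was Xist-high and the latter not, took a large part in these estimates. Without both, an alternative that drops the lowest libraries and was chosen after the data were seen, no gene was called. Slc16a8 was then at -2.38, Kcnj13 at -0.79 and Sostdc1 at -0.47, the estimates of Ttr, Kl, Clic6, Otx2 and Kcne2 lay between -0.36 and -0.11, and those of Folr1 and Aqp1 turned to 0.10 and 0.15.

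For SPI-77 against DMSO, all 10 estimates were again below 0, as were 50.8% of all genes, with a median of -1.30 against -0.01. None of the 10 members was called in limma, whereas 5.28% of all genes were called lower and 1.12% higher. Kl and Sostdc1 were lower at an unadjusted limma p below 0.05, as were 18.7% of all genes. All SPI-77 libraries were below all DMSO libraries for 5 of the 10 members (Sostdc1, Kl, Clic6, Kcnj13 and Kcne2), and for 15.3% of all genes. The spread that limma gave these genes came from all 3 groups, the very uneven SPI-24 group included. With the DMSO and SPI-77 libraries alone, the same 5 members were called lower (limma adjusted p = 0.0180 to 0.0406, 6.69% of all genes). They were also called in the fit of all groups without SPI-24 2 and SPI-24 3 (limma adjusted p = 0.0175 to 0.0368, 5.76% of all genes). Those libraries were left out because these genes were lowest there, so that fit is no separate support. It narrowed the spread (SE of Kl from 0.81 to 0.29) and left the estimates unchanged. DESeq2 on the recovered reads called Kl and Sostdc1 lower (7.26% of all genes) and edgeR none of the members (5.68%). In the fit of all groups, the calls over all genes fell to 0 when any of DMSO 2 and 4 and SPI-77 1 and 3 was left out. Leaving out DMSO or SPI-77 libraries was not tried in the fits that called the 5 members. Both comparisons use the same DMSO libraries.

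**Figure D2:**
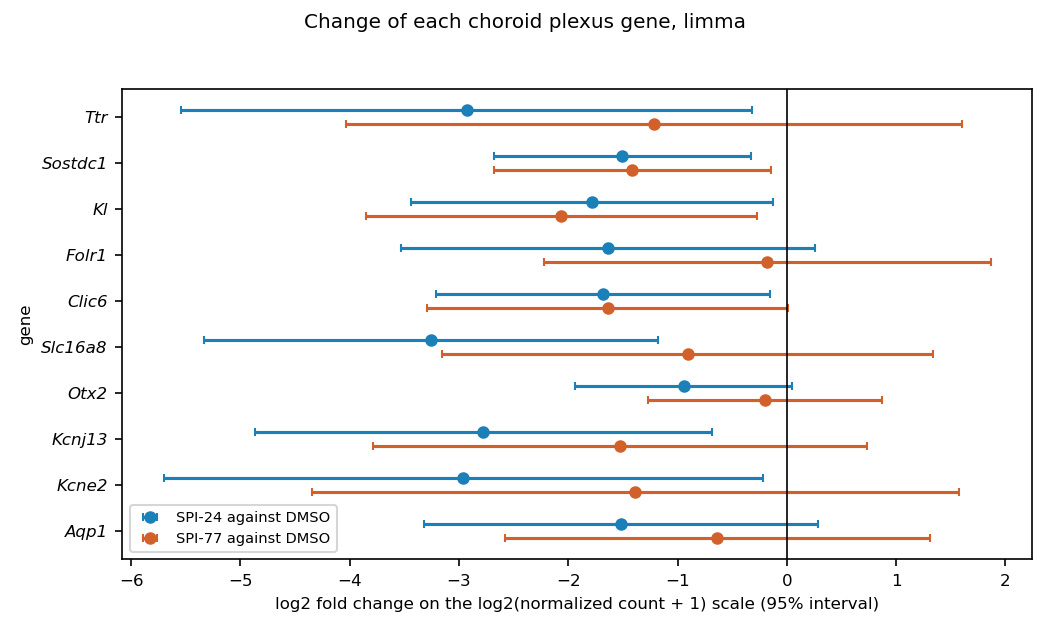
Log2 fold change of each choroid plexus gene (vertical axis) against DMSO on the log2(normalized count + 1) scale (horizontal axis), for SPI-24 (4 libraries) and SPI-77 (3 libraries) against 4 DMSO libraries. Points are limma estimates and bars their 95% intervals. All estimates lie below 0, none passed the adjusted threshold, and the SPI-77 intervals of Folr1 and Otx2 are centred near 0 (-0.18 and -0.20).

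The proportions of the members to each other were compared as well. With 18 tests on so few libraries, no ratio to Folr1 could pass 0.05 after adjustment for either compound. These tests therefore cannot decide whether a ratio changed. A ratio of members within a library does not depend on the library's scaling or on how many choroid plexus cells the punch held, as far as those cells are alike and no other cell expresses the genes. Kl had 1.54, 2.19, 2.21 and 3.49 counts for each Folr1 count in DMSO 1 to 4, 1.36, 2.58, 1.97 and 2.61 in SPI-24 1 to 4, and 0.655, 0.408 and 0.852 in SPI-77 1 to 3. The SPI-77 libraries were thus below all 8 others, while SPI-24 2 and SPI-24 3, where both genes were lowest, lay within the DMSO range. For Clic6 the geometric mean ratio to Folr1 was 2.11 in DMSO, 2.06 in SPI-24 and 0.765 in SPI-77, again without overlap between SPI-77 and DMSO.

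Of the 9 ratios to Folr1, 6 were lower in all SPI-77 than in all DMSO libraries (Ttr, Sostdc1, Kl, Clic6, Kcnj13 and Kcne2), as were those of 1.81% of all genes tested. This share is no like background. Folr1 ranged from 193 to 676 in DMSO and from 220 to 734 in SPI-77, which spreads the ratios of genes that do not vary with it. The ratios of Otx2, Aqp1 and Slc16a8 to Folr1 overlapped. Folr1 was taken as the reference after its values were seen, and a gene with high SPI-77 values lowers the ratios of all others. Over all 45 pairs of members, 14 ratios did not overlap between SPI-77 and DMSO (13 with 1 added to each count). This was so for 29.2% of all pairs of genes tested, so the count itself is near that of other genes. In each of these 14 the relatively higher gene was Folr1, Otx2 or Aqp1 and the lower one Ttr, Sostdc1, Kl, Clic6, Kcnj13 or Kcne2. This follows the order of the SPI-77 estimates, of which those of Folr1, Otx2 and Aqp1 were smallest in size (-0.18, -0.20 and -0.64). It is no further result. Kl and Clic6 were lower relative to Folr1, Otx2 and Aqp1 alike. Two-sided exact permutation tests gave p = 0.0571 for each of the 6 ratios to Folr1, the smallest value that 4 libraries against 3 allow, and 0.129 after adjustment over the 18 ratio tests of both compounds, so the design cannot take such a ratio past 0.05.

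For SPI-24, 3 of the 45 pairs did not overlap with DMSO, as was so for 2.36% of all pairs of genes tested, and Kcnj13 was the lower gene in each, relative to Folr1, Clic6 and Aqp1. The ratio of Kcnj13 to Folr1 was 0.409 to 0.642 in the DMSO libraries and 0.103 to 0.301 in the SPI-24 libraries (exact permutation p = 0.0286, adjusted p = 0.129). The value of SPI-24 3 rests on 3 reads. In SPI-77 this ratio was 0.126 to 0.377. Of all genes, 0.0179% had a ratio to Folr1 that was lower in all SPI-24 libraries. Folr1 itself was lowest in SPI-24 2 and SPI-24 3, which raises the ratio of any gene that did not fall with it. The share is therefore no like background for Kcnj13.

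**Figure D3:**
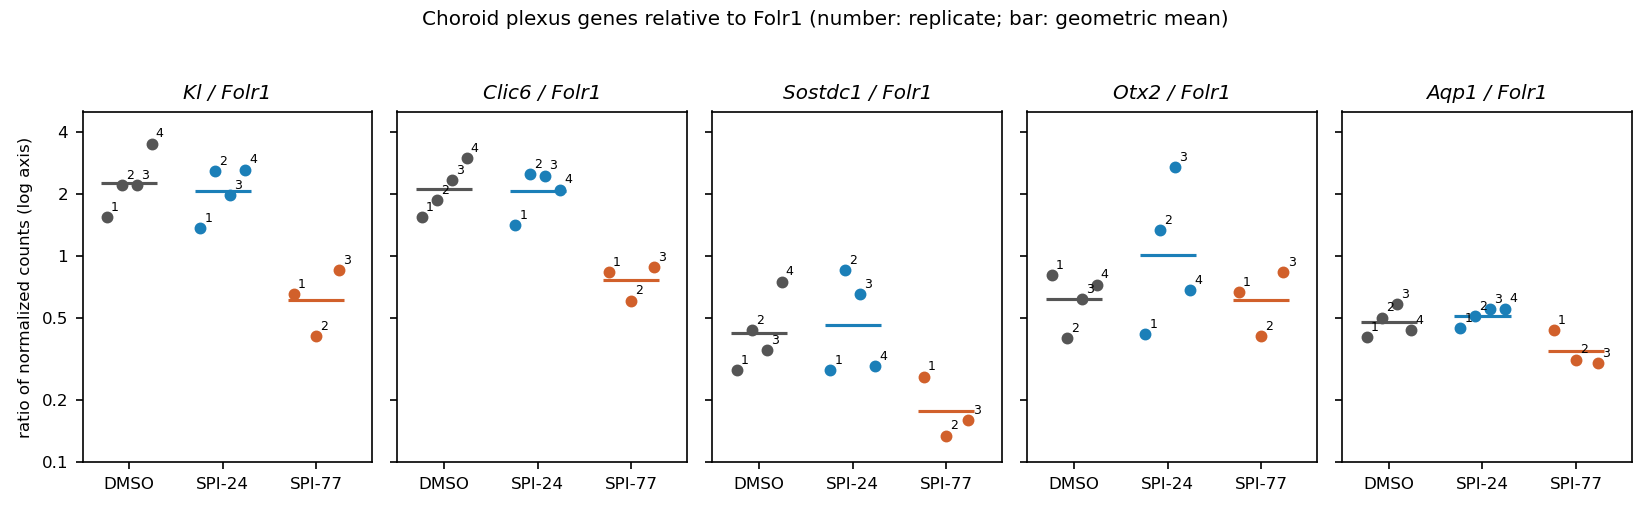
Ratio of the normalized counts of Kl, Clic6, Sostdc1, Otx2 and Aqp1 to that of Folr1 (log axis, the same for all 5 panels) in each library. Points are libraries with their replicate number and bars geometric means. For Kl, Clic6 and Sostdc1 all 3 SPI-77 points lie below all 4 DMSO points, and for Otx2 and Aqp1 they overlap.

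The profile of the 10 genes was compared with those of the other genes tested. The genes whose centred log2 profile over the 11 libraries was nearest to the mean profile of the members were Cldn2 (root mean square difference 0.287), Wdr86 (0.304), Drc7 (0.335), Lbp (0.368), Calml4 (0.370), Slc4a5 (0.371), Slc39a4 (0.373), Col8a2 (0.450), Krt18 (0.457) and Col4a4 (0.465), against a median of 1.49 over all genes tested. Of these, 6 are on a list of 38 other choroid plexus genes, among them Cldn2, a tight junction claudin of this epithelium, and Slc4a5, a bicarbonate cotransporter of its apical membrane. Of the 30 nearest genes, 12 are on that list, 1 is on the ependymal list and 17 are on no list. The members' own distances from their mean profile ran from 0.379 (Aqp1) to 1.23 (Slc16a8).

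SPI-24 2 and SPI-24 3 had been picked by the values of the members. Of the 37 other choroid plexus genes tested, 22 lay below all 9 other libraries in both, as did 9 of the 10 members and 3.12% of all genes. For SPI-24 none was called and all 37 estimates were below 0 (53.9% of all genes), with a median of -1.15. For SPI-77, 34 were below 0 (50.8% of all genes) and the median was -0.99. All SPI-77 libraries were below all DMSO libraries for 6 genes (15.3% of all genes), and 3 were called lower (5.28% of all genes). These counts of 6 and 3 were near those of other genes. The 3 were Htr2c, a serotonin receptor (-2.28 ± 0.56, SE, limma adjusted p = 0.0242), Slc4a10, a sodium-coupled bicarbonate transporter (-1.43 ± 0.37, adjusted p = 0.0263), and Slc12a2, the NKCC1 cotransporter (-1.13 ± 0.30, adjusted p = 0.0291). Neurons also express all 3, and unlike the members they were not lowest in SPI-24 2 and SPI-24 3, where Slc4a10 had 575 and 709.8 normalized counts against 257 to 874 in the DMSO libraries. All 3 calls were lost when any of DMSO 2 and 4 and SPI-77 1 and 3 was left out. With the DMSO and SPI-77 libraries alone, 10 of the 37 were called lower (6.69% of all genes). Enpp2, which encodes the secreted enzyme autotaxin, was at 11714 to 20892 in DMSO, 3949.5 to 14349.6 in SPI-24 and 4374 to 9244 in SPI-77 (-1.13 ± 0.45, limma adjusted p = 0.0977). Igfbp2, an IGF binding protein, was at 1435 to 3951 in DMSO, 1182 to 3573 in SPI-24 and 2454 to 3395 in SPI-77 (0.10 ± 0.41, limma adjusted p = 0.885).

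Of the 19 tested partners of the members (thyroid hormone and retinoid carriers and receptors, folate transporters, FGF23 and Wnt co-receptors, and channel or transporter subunits), none was called for SPI-24. For SPI-77, Thrb, a thyroid hormone receptor, was the single partner called, and was lower (5.28% of all genes were called lower). It was at 73.9 ± 17.5 (SD, n = 3) normalized counts against 237 ± 136 (n = 4) in DMSO (-1.48 ± 0.45, SE, limma adjusted p = 0.0409). Bsg, which encodes basigin, the chaperone of lactate transporters such as MCT3, was at 18983 to 25021 in the SPI-77 libraries and 11324 to 17282 in the DMSO libraries, a log2 difference of 0.61 (limma adjusted p = 0.0299) that is below the 2-fold limit. The Thrb call, too, was lost when any of DMSO 2 and 4 and SPI-77 1 and 3 was left out. Thra, Slco1c1 and Fgfr1 had log2 fold changes of 0.31, -0.17 and -0.05 (limma adjusted p = 0.318 to 0.860). The partners are expressed by many brain cells.

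Genes of other cell types near the ventricle moved with some of these libraries. The 15 ependymal genes (ciliated cells that line the ventricles) were summed at 2824 to 3638 normalized counts in DMSO, 409 to 4244 in SPI-24 and 1200.1 to 1909.97 in SPI-77, with Dnah12, Pifo and Tmem212 at 0 in at least 1 library. SPI-24 3 was the lowest library for this list as for the members. None of the 15 was called for either compound. All 15 estimates were below 0 for both (53.9% of all genes for SPI-24 and 50.8% for SPI-77). All SPI-77 libraries were below all DMSO libraries for 11 (15.3% of all genes). Foxj1, the master regulator of motile cilia, had 620.1 ± 94.9 (SD, n = 4) normalized counts in DMSO and 267 ± 52.2 (n = 3) in SPI-77. The mean log2 level of the medium spiny neuron genes relative to DMSO was -3.51 in SPI-24 2, -3.55 in SPI-24 3 and -2.77 to -3.71 in the SPI-77 libraries. For SPI-77, 7 of these 12 genes were called lower (0 when any of DMSO 2 and 4 and SPI-77 1 and 3 was left out), as were 5.28% of all genes. The mean log2 level of the 9 endothelial genes differed from its DMSO mean by at most 0.39 in any library, although single genes differed more (Ly6c1, 0.98 for SPI-77, limma adjusted p = 0.0335). Their summed normalized count was 3343 to 4288 in DMSO, 3011 to 4581 in SPI-24 and 4668 to 5396 in SPI-77. By this sum all SPI-77 libraries were above all DMSO libraries. The part of ependymal cells and of the place of the punch in the levels of the members was not tested.

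**Figure D4:**
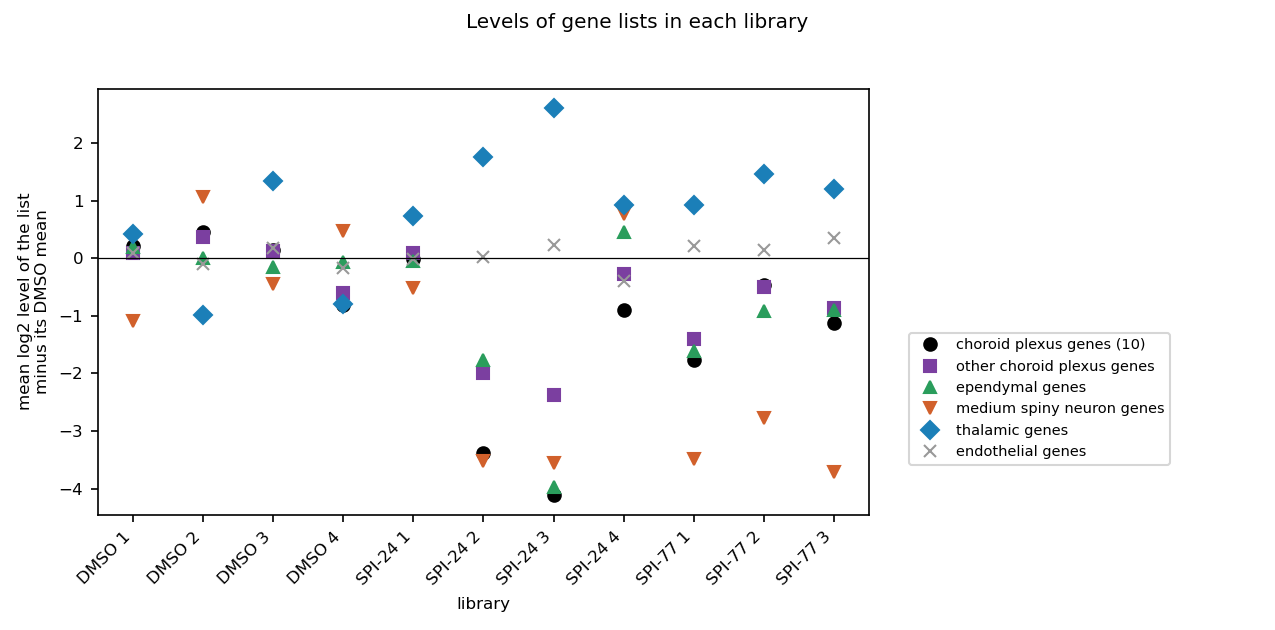
Mean log2(normalized count + 1) of gene lists in each library (horizontal axis), given as the difference from the mean of the list over the 4 DMSO libraries (vertical axis). Each symbol is 1 list in 1 library. The members fall to -3.37 and -4.12 in SPI-24 2 and SPI-24 3. The ependymal genes (-1.76 and -3.97) and the medium spiny neuron genes (-3.51 and -3.55) fall there too. The thalamic genes lie above their DMSO mean in all 7 compound libraries, and also in DMSO 1 (0.43) and DMSO 3 (1.34).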

How the data were processed

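RNA was taken from striatal punches of BACHD mice in 11 libraries (4 DMSO, 4 SPI-24, 3 SPI-77), grouped and numbered by their labels. By the submitters' processing notes and the paper's methods, reads were trimmed with cutadapt and aligned to GRCm38 with STAR, those with several positions were dropped, HTSeq counted the rest per gene, and the authors then used DESeq2. For these tools, versions were not given in the sources used here. Values as deposited are a signal, normalized read counts obtained by dividing reads by a size factor per library. Fold changes and p-values of the authors' own comparisons and a table of their thresholds were not used.

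In each library 100% of the values lay within 0.1 step of a whole number of reads, so reads were recovered (10.2 M to 33.8 M). No pair of libraries agreed within counting noise (lowest chi-square per gene 11.9). Identifiers were matched to GENCODE M21 (20930 of 20957, 99.87%), which restored 24 names turned into dates and gave exon lengths and 1-based coordinates. Genes that reached 10 normalized counts in 3 or more libraries were tested with limma 3.58.1 (R 4.3.3) on log2(normalized count + 1), with trend and robust variance, all groups in 1 fit, two-sided, and called below 0.05 after Benjamini-Hochberg adjustment where the change was at least 2-fold. This scale understates the change of low genes, and p-values measure the spread between these libraries. On the recovered reads, edgeR 4.0.16 called 152 genes higher and 953 lower for SPI-77 and DESeq2 1.42.0 called 262 and 1217, and neither called a gene for SPI-24. Other alternatives were the pseudocount, the low-value filter, TMM scaling, the replicate number as a block, fits of only the groups compared and leaving out libraries.

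The members, the gene lists and the rules were chosen with earlier results of these data known. Named were all members, the 8 other choroid plexus genes and 4 partners of highest DMSO mean and any called (described here as far as a result turned on them), the leading genes of the other lists, and the 10 genes nearest in profile. The lists of meningeal fibroblast, blood, habenular and cortical and hippocampal excitatory genes had 3, 0, 1 and 0 genes called higher and none lower for SPI-77 (1.12% and 5.28% of all genes), and none called for SPI-24.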

Additional observations from a re-analysis of the deposited data

Results flagged for a closer look

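Sostdc1 in DMSO 2 stood apart from the other control libraries. On the log2(normalized count + 1) scale it was at 8.21 there and at 7.18, 7.18 and 7.19 in DMSO 1, DMSO 3 and DMSO 4, so that its gap to the nearest of them made up 0.986 of the range of the group. It was the single such sample among 42 groups of values looked at, of which chance would mark about 5%. A single flag is no more than chance would give.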

How the results depend on the processing

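The pseudocount, the filter on low values, TMM scaling, the replicate block and edgeR changed no call of a member. The size of the SPI-24 estimates did depend on the method. Kcne2 was at -2.96 in limma and -1.33 in edgeR, Slc16a8 at -3.25 and -1.96, and Otx2, which moved least, at -0.94 and -0.81. TMM scaling moved the median of all genes by -0.011 (SPI-24) and -0.016 (SPI-77). For SPI-77, fits of only the groups compared called 285 genes higher, 5 members lower and 10 other choroid plexus genes lower. DESeq2 called 2 members and 6 other choroid plexus genes lower. Without both libraries numbered 4, 460 genes and 0 other choroid plexus genes were lower. Without SPI-24 2 and SPI-24 3, chosen after seeing the data, 5 members and 10 other choroid plexus genes were lower for SPI-77, and for SPI-24 Folr1 turned to 0.0958 and Aqp1 to 0.15. The cause of these shifts was not tested.

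Leaving out 1 library at a time, SPI-77 calls ranged from 0 to 396 genes higher, 0 to 1471 lower, 0 to 1 member lower (Kl, without SPI-24 3) and 0 to 4 other choroid plexus genes lower. They were 0 over all genes when any of DMSO 2 and 4 and SPI-77 1 and 3 was left out, and highest without DMSO 1. SPI-24 calls ranged from 0 to 2 genes lower and 0 to 1 member lower (Slc16a8, without SPI-24 1). The SPI-77 estimate of Otx2 ranged from -0.48 to 0.09 (0.04 without DMSO 1, 0.0939 without SPI-77 1) and that of Folr1 from -0.69 to 0.18 (0.06 without DMSO 2, 0.18 without SPI-77 1).

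Correlations of deviations between libraries of the same number ran from -0.156 to 0.205, so the numbers were not taken to pair them. With the number as a block, 138 genes were higher and 734 lower for SPI-77, with 0 members and 3 other choroid plexus genes, and 0 for SPI-24. Depth limits Kcne2 and Kcnj13 in SPI-24 3 (1 and 3 reads) and Slc16a8 in SPI-24 2, 3 and 4 (7, 11 and 8 reads).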
